A study of Mus musculus with 18 samples.

Results

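The 29 genes described here encode the mevalonate and cholesterol synthesis pathway and its direct regulators and were taken from the count table by gene symbol. All 29 symbols were found among the 16314 symbols of the count table, and all 29 passed the filter on low counts that left 12021 genes for testing. The list does not hold every gene of the pathway. It was followed in bone marrow-derived macrophages (BMDMs) of mice on a C57BL6/J background, grown from femoral marrow for 7 days with 50 ng/ml M-CSF, the growth factor that drives macrophage differentiation. Prep, which encodes prolyl endopeptidase, was deleted on both alleles (Prep-/-) or on 1 allele (Prep+/-), so the controls were heterozygous littermates and not wild-type mice. Cells of each genotype were left unstimulated (M0), received 50 ng/ml of the bacterial lipopolysaccharide LPS for 24 h (M1), or received IL-4 and IL-13 for 24 h at 20 ng/ml each (M2). Each of the 6 groups held 3 libraries, described by the study as biological replicates. The age of the marrow donors and whether each library came from its own animal are not given in the sources used here, so p-values measure the spread between these libraries.

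In this pathway acetyl-CoA is condensed to HMG-CoA, carried through mevalonate to farnesyl diphosphate, joined to squalene, closed to lanosterol and trimmed to cholesterol, while a side branch makes geranylgeranyl diphosphate for prenylated proteins. Its genes are classical targets of the transcription factor SREBP2, which the escort protein SCAP carries from the endoplasmic reticulum to the Golgi for cleavage and which INSIG proteins hold back when sterols are plentiful. In macrophages the pathway is known to be tied to the inflammatory state and to cholesterol loading, where surplus cholesterol is stored as esters or exported.

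The members called in unstimulated Prep-/- BMDMs were all lower than in the controls, and those called after LPS were all higher. In M0, 8 of 29 members were lower and 0 higher in Prep-/- than in Prep+/- BMDMs, where a member was called at an edgeR quasi-likelihood adjusted p (Benjamini-Hochberg, over all genes tested) under 0.05 with a fold change over 1.5. Of all genes tested, 17.2% were called lower and 15.4% higher in that comparison. In M1, 18 members were higher and 0 lower, against 12.3% of all genes called higher and 10.2% lower. In M2, 5 were higher and 1 lower, against 6.37% and 9.82%. For M0, M1 and M2 in turn, the members' median log2 fold change was -0.45, 0.84 and 0.27, while over all 12021 genes it was 0.02, 0.04 and 0.03. Levels are given as CPM, a gene's counts scaled to the TMM-adjusted total of its library, and log2 fold changes carry their standard error after the ± sign, with the Benjamini-Hochberg value of this fit written as the edgeR adjusted p. For the counts of 0, edgeR gave 2 members higher in M0 and 0 lower in M1 at an unadjusted p under 0.05, and DESeq2 called 0 in both. Of the 29 members, 22 were called in at least 1 state, 6 were called lower in M0 and higher in M1, and 7 were called in none. The shares of all genes with these patterns over the states were not counted, so these counts describe the members only.

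**Figure D1:**
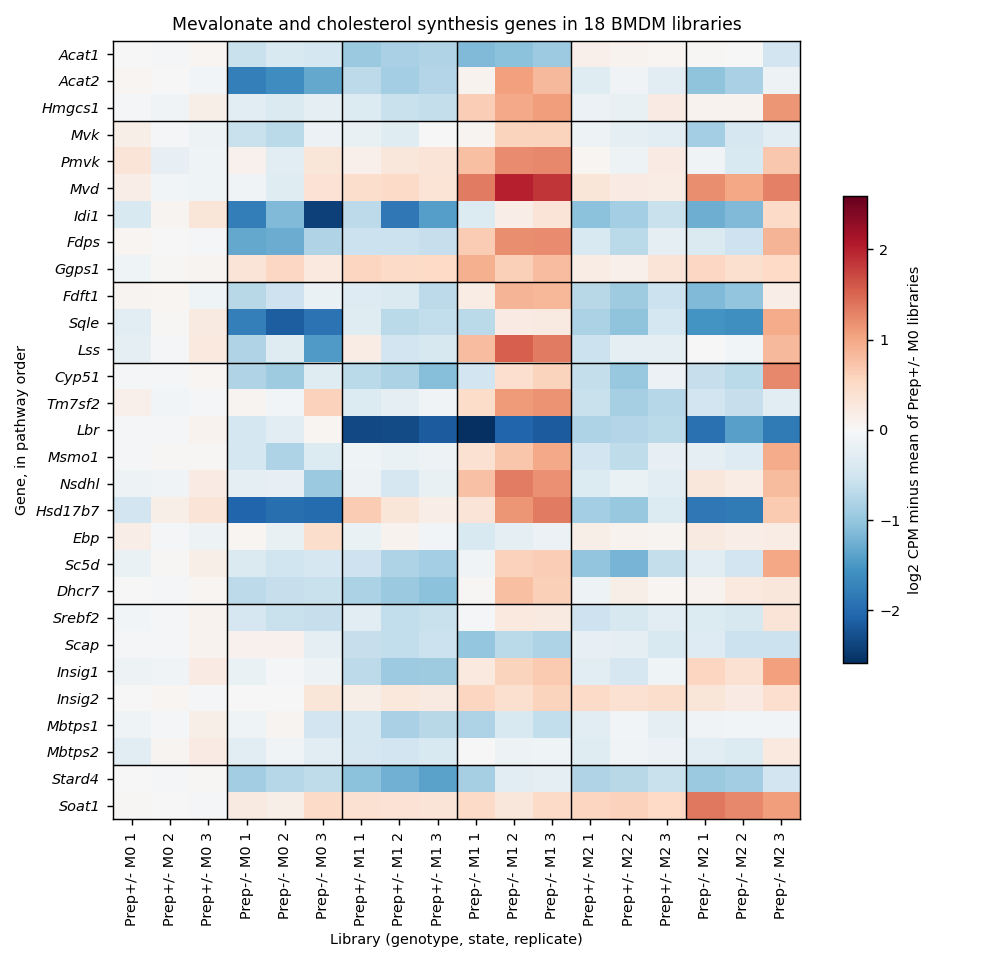
Heat map of log2 CPM for the 29 members (rows, in pathway order, with lines between role groups) in the 18 libraries (columns), each minus the mean of the 3 Prep+/- M0 libraries. Blue marks lower and red higher levels. Most enzyme rows are blue in the 3 Prep-/- M0 libraries and red in Prep-/- M1 replicates 2 and 3, and Prep-/- M2 replicate 3 is redder than replicates 1 and 2 of its group.

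The libraries held 19068237 to 22598279 counts with TMM factors of 0.818 to 1.196, and the members' raw counts ran from 45 to 13785 per library. Prep was at 30.1, 34.9 and 42.5 CPM in Prep+/- M0 and 1.99, 2.01 and 1.48 CPM in Prep-/- M0, and its log2 fold change was -4.29, -3.74 and -3.77 in M0, M1 and M2. All 7 macrophage markers checked (Adgre1, Csf1r, Cd68, Itgam, Lyz2, Mertk and Fcgr1) were present, with a summed level of 9958 to 47592 CPM. That sum was 29989 to 47592 CPM in Prep-/- M0 against 18733 to 22167 CPM in Prep+/- M0, 30443 to 36405 against 44529 to 45873 CPM in M1, and 13817 to 19505 against 9958 to 12160 CPM in M2. Of 4 B cell markers 3 were in the table, and their sum was 8.66 to 11.5 CPM in Prep-/- M0 against 3.01 to 4.79 CPM in Prep+/- M0, 5.09 to 6.96 against 2.06 to 2.59 CPM in M1 and 0.959 to 4.45 against 1.56 to 2.81 CPM in M2. The T cell markers summed to at most 0.0479 CPM and the erythroid ones to at most 0.185 CPM in any library. The sum of 7 granulocyte precursor markers was 33.3 to 74.1 CPM in Prep-/- M0 against 15.5 to 23.7 CPM in Prep+/- M0, 35.0 to 47.7 against 56.8 to 107.7 CPM in M1 and 17.8 to 25.6 against 14.8 to 18.9 CPM in M2. The sum of 6 stromal markers was 12.4 to 15.8 CPM in Prep+/- M0, 18.4 to 20.5 CPM in Prep+/- M1, 11.6, 17.3 and 5.65 CPM in Prep-/- M1 and 0.855, 4.80 and 5.75 CPM in Prep-/- M2. It was split within the other groups, at 15.6, 12.3 and 0.369 CPM in Prep-/- M0 and 0.170, 0.0839 and 14.0 CPM in Prep+/- M2. The part that such cells had in the results was not tested, and in bulk RNA fewer cells of a type and less RNA per cell cannot be told apart.

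In the members or over all genes, 1 library stood apart in each Prep-/- group. In M2 replicate 3, 13 of 29 members lay over 1.5-fold above the mean of replicates 1 and 2, beside 14.1% of all genes above and 11.6% below by that margin. M1 replicate 1 had 13 members over 1.5-fold below the mean of its 2 fellows, beside 7.43% of all genes. In M0 replicate 3, 12.7% of all genes lay above and 15.7% below, though only 1 member lay above and 3 below, and its 6 hepatocyte markers summed to 15.3 CPM against 0.151 to 0.868 CPM in the other libraries. Summed over the 21 enzymes, the level was 931, 928 and 974 CPM in Prep+/- M0 and 634, 611 and 746 CPM in Prep-/- M0. In M1 it was 715, 674 and 663 CPM in Prep+/- and 1033, 1495 and 1531 CPM in Prep-/- BMDMs, and in M2 752, 708 and 843 CPM in Prep+/- and 781, 760.4 and 1476 CPM in Prep-/- BMDMs. The genotypes did not overlap in M0 or M1. In M2, Prep-/- replicates 1 and 2 lay within the range of the Prep+/- libraries and replicate 3 lay far above it.

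The DNA before the members' start sites was read for known elements, chosen after the values had been seen. RefSeq promoters (GRCm38.p6) were at hand for 24 members, and not for Acat1, Fdft1, Fdps, Sqle and Stard4. The 250 bases before each start were searched on both strands. The sterol regulatory element TCACNCCAC was found in 1 of 24 members, Hmgcs1, and in 1.22% of all 27025 genes of that table. Only this exact string was searched, so a miss does not show that a member lacks other forms of the element. CCAAT, the box bound by NF-Y, was found in 20 of 24 members (83.3%), in 37.5% of all genes of that table and in 40.9% of the 9681 tested genes it holds. Among the 18 of these members called in a knockout comparison 17 held CCAAT, as did 3 of the 6 called in none. The stretch before Hmgcs1 is shown because it holds both elements, in capitals, with the CCAAT box read from the other strand as ATTGG. It spans bases 160 to 1 before the start at chr13:120151727-120151886 on the plus strand of GRCm39, where the sequence was placed by exact match.
Hmgcs1: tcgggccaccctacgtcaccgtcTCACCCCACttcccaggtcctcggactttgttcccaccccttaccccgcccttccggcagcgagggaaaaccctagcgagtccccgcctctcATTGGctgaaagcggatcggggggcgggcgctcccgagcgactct
For 7 other called members, spread over the steps of the pathway, the CCAAT box nearest the start is shown in capitals with up to 11 bases on either side. They lie at chr8:123170173-123170199 (Mvd), chr13:8935617-8935641 (Idi1), chr10:76367366-76367392 (Lss), chrX:71962096-71962122 (Nsdhl), chr9:42175605-42175631 (Sc5d), chr7:143383891-143383917 (Dhcr7) and chr15:82031324-82031350 (Srebf2). The strand is that of the gene, minus for Mvd and Sc5d and plus for the others.
Mvd: cggccagcgggCCAATcatatggcagc
Idi1: tccaaggtgccATTGGctggcgacc
Lss: gtgatgctctgATTGGccgagctcgca
Nsdhl: agactagcctcATTGGgcaaaatcatg
Sc5d: gccggctgctgATTGGccggctgcctg
Dhcr7: atccacttccgATTGGtcgtctgtgac
Srebf2: ttcgcgcgccgATTGGctaatgcaagc
The windows of Hmgcs1 and Srebf2 lie wholly outside the GENCODE M39 gene bounds, and the others reach into them, since GENCODE places an earlier start. A match of letters is a description and not a shown binding site.

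Per kilobase of canonical transcript, the most abundant member in Prep+/- M0 was Fdps, the farnesyl diphosphate synthase, at 78.7 ± 2.65 CPM per kb (SD, n = 3), followed by the sterol isomerase Ebp at 41.7 ± 4.37, Msmo1 at 37.0 ± 1.299 and Soat1 at 32.0 ± 0.678 CPM per kb. Srebf2 came next at 29.2 ± 1.72 CPM per kb. Insig1 (25.1 ± 3.33), Sqle (22.98 ± 3.93), Hmgcs1 (21.8 ± 2.05) and Pmvk (20.3 ± 4.22 CPM per kb) followed, and neighbours among these differed by less than either SD. The lowest were Lss at 3.44 ± 0.574, Ggps1 at 2.98 ± 0.189 and Hsd17b7 at 1.97 ± 0.546 CPM per kb.

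At the entry to the pathway, the cytosolic thiolase Acat2, which makes acetoacetyl-CoA, and the HMG-CoA synthase Hmgcs1 were both higher in Prep-/- M1. Acat2 (chromosome 17, 13161367 to 13179641) was at 26.8, 26.0 and 24.6 CPM in Prep+/- M0 and 7.54, 8.50 and 10.3 CPM in Prep-/- M0. With LPS (M1) the values were 16.2, 13.9 and 15.3 CPM in Prep+/- and 27.4, 54.1 and 46.2 CPM in Prep-/- BMDMs, and in M2 they were 20.7, 24.1 and 21.0 CPM and 12.5, 14.5 and 23.5 CPM. The Prep-/- libraries were thus all lower in M0, all higher in M1 and overlapping in M2. Its log2 fold change was -1.56 ± 0.23 SE (edgeR adjusted p = 6.29e-05) in M0 and 1.49 ± 0.23 SE (edgeR adjusted p = 0.000272) in M1. Acat2 shares 97.7% of 1477 bases with Acat3, which was at 0.200 to 0.729 CPM in every library. It also overlaps the chaperonin gene Tcp1 on the opposite strand, which was at 146 to 295 CPM. The knockout log2 fold changes of Tcp1 were -0.62 in M0 (edgeR adjusted p = 0.000229), -0.53 in M1 and -0.39 in M2. Tcp1 thus met both call criteria in M0, where it was lower as Acat2 was, while in M1 the 2 genes went in opposite directions. The library kit keeps strand, but the strand setting of the counting is not given in the sources used here.

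Hmgcs1 was at 85.5, 83.1 and 98.8 CPM in Prep+/- M0 and 72.5, 68.9 and 74.5 CPM in Prep-/- M0, which did not overlap but passed no test (log2 fold change -0.31 ± 0.22 SE, edgeR adjusted p = 0.260). Its M1 values were 69.3, 59.2 and 58.0 CPM in Prep+/- and 138, 175 and 187 CPM in Prep-/- BMDMs, with every knockout library far above every control. The log2 fold change in M1 was 1.42 ± 0.22 SE (edgeR adjusted p = 0.000289). In M2 the values were 79.7, 77.6 and 102 CPM and 94.4, 95.2 and 197 CPM, and only Prep-/- replicate 3 rose clear of the controls. A stretch of 396 bases of Hmgcs1 is 99.5% identical to Baz1a, which was at 15.8 to 38.2 CPM and was not called in any state. Acat1, the mitochondrial thiolase, was not called in any knockout comparison, with log2 fold changes of -0.47, -0.19 and -0.23.

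Between mevalonate and farnesyl diphosphate, 5 of 6 members were higher in Prep-/- M1, and 2 of them, Idi1 and Fdps, were lower in Prep-/- M0. Idi1 (chromosome 13, 8935537 to 8942487) isomerizes isopentenyl diphosphate, and was at 13.2, 18.3 and 21.5 CPM in Prep+/- M0 against 5.03, 7.87 and 3.23 CPM in Prep-/- M0. In M1 it was at 10.9, 4.83 and 6.42 CPM against 13.6, 19.5 and 21.9 CPM, and in M2 at 8.35, 9.35 and 11.7 CPM against 7.19, 7.85 and 24.4 CPM. Knockout libraries were below all controls in M0 and above them in M1, and in M2 replicate 3 alone exceeded the controls. The log2 fold change was -1.71 ± 0.43 SE (edgeR adjusted p = 0.00374) in M0 and 1.31 ± 0.43 SE (edgeR adjusted p = 0.0253) in M1. The call in M1 was lost when Prep+/- M1 replicate 2 or 3 or Prep-/- M1 replicate 2 or 3 was left out, with an edgeR adjusted p of up to 0.109.

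Fdps (chromosome 3, 89000888 to 89019213), whose product feeds both squalene and protein farnesylation, turned round between the states. It was at 106, 102 and 99.4 CPM in Prep+/- M0 and 41.2, 42.4 and 60.1 CPM in Prep-/- M0, and at 70.2, 69.5 and 67.9 CPM in Prep+/- M1 and 163, 236 and 238 CPM in Prep-/- M1. The genotypes did not overlap in either state. The log2 fold change was -1.10 ± 0.28 SE (edgeR adjusted p = 0.00389) in M0 and 1.62 ± 0.28 SE (edgeR adjusted p = 0.000585) in M1. In M2 the values were 78.2, 63.6 and 86.7 CPM and 79.4, 70.9 and 188 CPM, with replicate 3 again apart.

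The other members of this stretch were called only where they were higher. Mvd, the decarboxylase that makes isopentenyl diphosphate, was at 30.7, 26.0 and 25.1 CPM in Prep+/- and 25.7, 21.8 and 35.4 CPM in Prep-/- M0. It was at 37.3, 38.3 and 34.7 CPM against 68.8, 109 and 98.2 CPM in M1 and 33.7, 31.3 and 30.9 CPM against 62.6, 54.2 and 66.8 CPM in M2. In both stimulated states every Prep-/- library exceeded every Prep+/- library. The log2 fold change of Mvd was 1.32 ± 0.17 SE (edgeR adjusted p = 9.03e-05) in M1 and 0.94 ± 0.17 SE (edgeR adjusted p = 0.000842) in M2, and the M2 call held without Prep-/- M2 replicate 3 (log2 fold change 0.88, edgeR adjusted p = 0.00236).

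The kinases on either side of phosphomevalonate moved less. Pmvk was at 26.2, 29.5 and 30.1 CPM in Prep+/- M1 and 41.2, 55.6 and 57.0 CPM in Prep-/- M1, without overlap (log2 fold change 0.84 ± 0.23 SE, edgeR adjusted p = 0.0109). In M0 it was at 30.0, 20.7 and 22.1 CPM against 26.0, 19.4 and 29.6 CPM and in M2 at 24.7, 21.9 and 27.6 CPM against 22.6, 18.1 and 38.6 CPM, overlapping in both. Mvk, the mevalonate kinase, was at 22.0, 20.1 and 25.1 CPM in Prep+/- M1 and 26.3, 37.5 and 37.4 CPM in Prep-/- M1, with a log2 fold change of 0.59 ± 0.17 SE (edgeR adjusted p = 0.0154). That change lay just above the fold criterion, and 8 of 14 alternatives lost the call. In M0 Mvk was at 27.8, 24.7 and 23.004 CPM against 16.9, 15.4 and 22.7 CPM and in M2 at 23.01, 21.5 and 20.9 CPM against 13.7, 18.7 and 20.4 CPM, where all knockout libraries were lower but the difference was not called. A stretch of its transcript is over 90% identical to transcripts of 27 other genes in the table. Ggps1, on the branch to geranylgeranyl diphosphate, was higher in all 9 Prep-/- libraries than in the Prep+/- libraries of its state but by under 1.5-fold, with log2 fold changes of 0.38, 0.25 and 0.27. Its transcript shares 257 bases with Arid4b on the opposite strand. The knockout log2 fold changes of Arid4b went the same way, at 0.51, 0.27 and 0.25 in M0, M1 and M2.

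From squalene to lanosterol, Sqle and Lss were lower in Prep-/- M0, and Fdft1 and Lss were higher in Prep-/- M1. Sqle, the squalene epoxidase and a known control point of the pathway, lies on chromosome 15 from 59186869 to 59203043. It was at 53.1, 65.3 and 75.1 CPM in Prep+/- M0 and 18.8, 14.5 and 17.1 CPM in Prep-/- M0, a log2 fold change of -1.94 ± 0.50 SE (edgeR adjusted p = 0.00434). The M1 libraries were at 51.6, 39.6 and 40.8 CPM and 39.5, 74.4 and 75.0 CPM, and those of M2 at 36.2, 31.1 and 46.5 CPM and 21.8, 21.4 and 125 CPM. The M1 groups overlapped through Prep-/- replicate 1, and the log2 fold change there was 0.52 ± 0.48 SE (edgeR adjusted p = 0.415). The M2 group was split, with replicates 1 and 2 below every control and replicate 3, at 5.76 times their mean, above every control. With replicate 3 left out, Sqle was lower in Prep-/- M2 (log2 fold change -0.80, edgeR adjusted p = 0.0198).

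Lss, which closes squalene epoxide to lanosterol, was at 18.6, 21.4 and 25.9 CPM in Prep+/- M0 and 12.6, 17.5 and 7.94 CPM in Prep-/- M0. Under LPS it stood at 24.7, 15.4 and 16.4 CPM and 37.8, 63.9 and 55.5 CPM, and in M2 at 14.9, 18.2 and 18.4 CPM and 21.5, 20.7 and 39.01 CPM. Its groups were separate in all 3 states, lower in Prep-/- M0 and higher in Prep-/- M1 and M2. It had a log2 fold change of -0.79 ± 0.29 SE (edgeR adjusted p = 0.0337) in M0 and of 1.48 ± 0.29 SE (edgeR adjusted p = 0.00137) in M1, while 0.66 ± 0.29 SE (edgeR adjusted p = 0.108) in M2 was not called. The M0 call was lost when Prep+/- M0 replicate 2 or 3 or Prep-/- M0 replicate 1 or 3 was left out.

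Fdft1, the squalene synthase, was at 41.2, 40.7 and 36.3 CPM in Prep+/- M0 and 24.04, 27.0 and 34.7 CPM in Prep-/- M0. It was at 31.2, 30.5 and 24.5 CPM against 45.1, 72.7 and 70.9 CPM in M1 and 23.8, 20.8 and 26.8 CPM against 17.7, 19.3 and 44.1 CPM in M2. Groups were separate in M0 and M1 and overlapped in M2. Only the M1 difference was called, with a log2 fold change of 1.13 ± 0.27 SE (edgeR adjusted p = 0.00519). Its transcript overlaps that of the lysosomal protease Ctsb on the opposite strand over 1184 bases. Ctsb was at 9694 to 18848 CPM with knockout log2 fold changes of 0.42, 0.38 and 0.76 in M0, M1 and M2. Those of Fdft1 were -0.46, 1.13 and 0.19, opposite to Ctsb in M0 and in its direction in M1 and M2. The part that Ctsb reads had in the counts of Fdft1 was not tested.

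**Figure D2:**
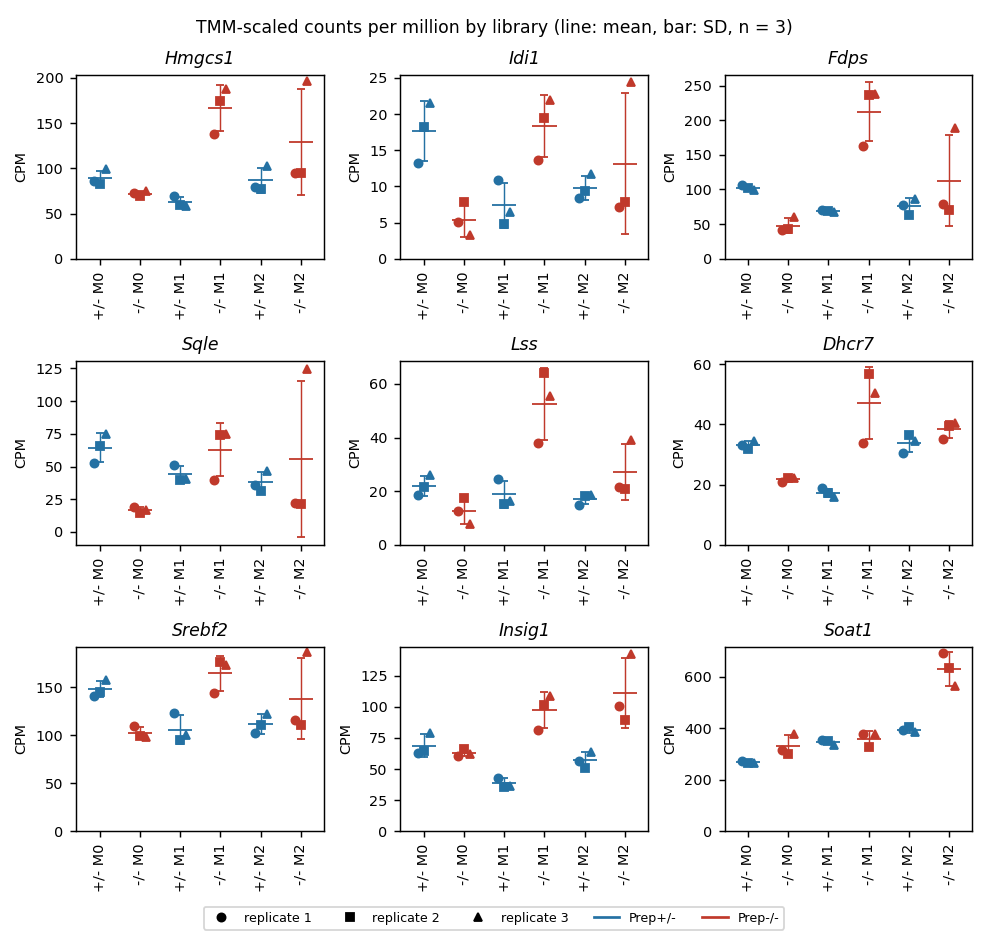
CPM (vertical axes, starting at 0 unless an error bar reaches below it) of 9 members in each library of the 6 groups. Circles, squares and triangles are replicates 1, 2 and 3, lines are group means and bars SD (n = 3). For Fdps, Sqle and Idi1 the Prep-/- libraries lie below the Prep+/- libraries in M0, and Prep-/- M2 replicate 3 (triangle) lies far above its fellows for Sqle, Fdps and Idi1 but not for Dhcr7 or Soat1.

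Among the 9 enzymes that turn lanosterol into cholesterol, 2 were lower in Prep-/- M0 and 6 higher in Prep-/- M1. For M2, 2 were higher and 1 lower. Hsd17b7, a ketoreductase of the demethylation steps, was at 6.29, 9.79 and 11.2 CPM in Prep+/- M0 and 2.13, 2.30 and 2.21 CPM in Prep-/- M0. This was the largest decrease among the members in M0, with a log2 fold change of -2.03 ± 0.52 SE (edgeR adjusted p = 0.00437). In M1 it was at 13.9, 10.96 and 9.94 CPM and 11.1, 19.5 and 22.5 CPM, and in M2 at 4.82, 4.49 and 6.87 CPM and 2.46, 2.499 and 14.2 CPM. Both pairs overlapped. Prep-/- M2 replicate 3 was at 5.72 times the mean of its fellows, and without it Hsd17b7 was lower in Prep-/- M2 (log2 fold change -1.10, edgeR adjusted p = 0.0147).

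Dhcr7 (chromosome 7, 143376740 to 143402149), which catalyses the final reduction to cholesterol in one branch, was lower in Prep-/- M0 and higher in Prep-/- M1. It was at 33.2, 31.9 and 34.3 CPM in Prep+/- M0 and 20.9, 22.1 and 22.3 CPM in Prep-/- M0, and at 18.8, 17.1 and 15.9 CPM in Prep+/- M1 and 33.7, 56.8 and 50.6 CPM in Prep-/- M1. The groups were separate, and the log2 fold change was -0.61 ± 0.15 SE (edgeR adjusted p = 0.00277) in M0 and 1.44 ± 0.15 SE (edgeR adjusted p = 1.41e-05) in M1. In M2 it was at 30.4, 36.7 and 34.5 CPM and 35.1, 39.6 and 40.4 CPM, overlapping, with a log2 fold change of 0.18 ± 0.15 SE (edgeR adjusted p = 0.396). The M0 call was near the fold criterion and was lost without Prep-/- M0 replicate 1.

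Nsdhl, a dehydrogenase of the demethylation steps, was at 19.1, 19.6 and 24.2 CPM in Prep+/- M0 and 17.7, 17.95 and 10.8 CPM in Prep-/- M0. These groups did not overlap, but the difference was not called (log2 fold change -0.44 ± 0.20 SE, edgeR adjusted p = 0.0850). Nsdhl was at 18.9, 15.5 and 18.4 CPM against 35.0, 52.3 and 47.0 CPM in M1 and 16.2, 18.6 and 17.3 CPM against 25.7, 23.8 and 36.6 CPM in M2. All Prep-/- libraries were above the controls in both stimulated states, with log2 fold changes of 1.35 ± 0.20 SE (edgeR adjusted p = 0.000242) under LPS and 0.73 ± 0.20 SE (edgeR adjusted p = 0.0153) in M2. Without Prep-/- M2 replicate 3 the M2 value was 0.52 and under the fold criterion.

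Sc5d, the desaturase acting just before Dhcr7, was at 30.4, 35.0 and 38.0 CPM in Prep+/- M0 and 26.6, 23.98 and 25.3 CPM in Prep-/- M0. With LPS (M1) the values were 23.6, 19.7 and 18.5 CPM and 32.1, 51.5 and 53.2 CPM, and in M2 they were 17.0, 14.8 and 22.5 CPM and 27.9, 24.3 and 69.0 CPM. Groups were separate in every state, lower in the knockout in M0 and higher in M1 and M2. Sc5d had log2 fold changes of 1.14 ± 0.30 SE (edgeR adjusted p = 0.00863) in M1 and 1.16 ± 0.30 SE (edgeR adjusted p = 0.0104) in M2, the latter 0.54 and under the fold criterion without Prep-/- M2 replicate 3. In M0 it was -0.45 and not called (edgeR adjusted p = 0.233).

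The remaining demethylation enzymes were called in M1 only. Msmo1, the methyl sterol oxidase, was at 89.1, 85.7 and 87.9 CPM in Prep+/- M1 and 127, 159 and 192 CPM in Prep-/- M1 (log2 fold change 0.86 ± 0.26 SE, edgeR adjusted p = 0.0164). It was at 92.9, 98.2 and 99.3 CPM against 70.1, 55.5 and 75.5 CPM in M0 and 68.6, 61.0 and 83.3 CPM against 80.9, 77.2 and 189 CPM in M2. The M0 groups were separate with the knockout lower, and the M2 groups overlapped. The M1 call of Msmo1 was lost without Prep+/- M1 replicate 2 or Prep-/- M1 replicate 3. Cyp51, the lanosterol demethylase, was at 46.6, 42.9 and 35.3 CPM in Prep+/- M1 and 53.3, 102 and 112 CPM in Prep-/- M1, with a log2 fold change of 1.10 ± 0.41 SE (edgeR adjusted p = 0.0436). It was at 74.3, 74.3 and 78.0 CPM against 44.2, 39.8 and 60.5 CPM in M0 and 49.5, 38.5 and 67.8 CPM against 49.9, 46.9 and 178 CPM in M2. Its Prep-/- M2 replicate 3 was at 3.69 times the mean of the others. The M1 call was lost when any Prep+/- M1 library or Prep-/- M1 replicate 2 or 3 was left out. Cyp51 shares 1204 bases with Akap9 and Sqle 469 bases with Washc5, both on the opposite strand. Akap9 (10.4 to 26.9 CPM) and Washc5 (78.2 to 154 CPM) were not called in any state. In M0, though, Washc5 was lower in the knockout, as Sqle was, with a log2 fold change under the fold criterion (-0.51, edgeR adjusted p = 0.00109).

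Tm7sf2 and Lbr encode sterol reductases that can act at the same step of the pathway. Tm7sf2 was at 7.80, 8.49 and 9.33 CPM in Prep+/- M1 and 13.8, 21.4 and 22.3 CPM in Prep-/- M1, without overlap (log2 fold change 1.17 ± 0.19 SE, edgeR adjusted p = 0.000417). In M0 it was at 10.8, 9.43 and 9.58 CPM against 10.4, 9.50 and 14.996 CPM and in M2 at 6.65, 5.49 and 5.98 CPM against 7.09, 6.55 and 8.15 CPM, overlapping in both. Lbr, which also ties chromatin to the inner nuclear membrane, was at 39.04, 39.8 and 41.7 CPM in Prep+/- M2 and 17.8, 25.4 and 18.9 CPM in Prep-/- M2. All 3 knockout libraries were lower, with a log2 fold change of -0.96 ± 0.17 SE (edgeR adjusted p = 0.000700). In M0 Lbr was at 65.2, 65.2 and 72.1 CPM against 49.4, 55.9 and 69.4 CPM and in M1 at 13.3, 13.7 and 15.3 CPM against 9.82, 16.3 and 15.2 CPM, overlapping in both. Ebp, the sterol isomerase, stayed between 55.1 and 99.0 CPM over all libraries, with log2 fold changes of 0.12, -0.22 and 0.09 that were not called.

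**Figure D3:**
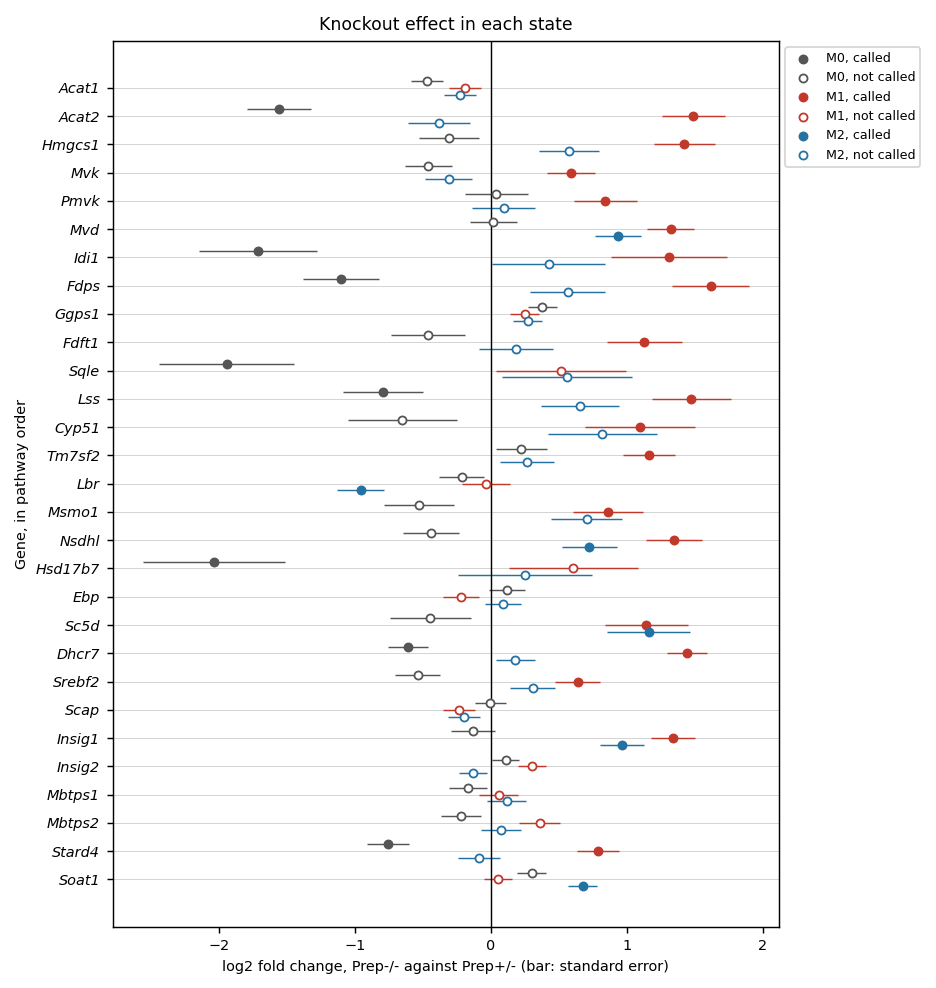
Log2 fold change between Prep-/- and Prep+/- BMDMs (horizontal axis, bars are standard errors) for the 29 members in pathway order, in M0 (grey), M1 (red) and M2 (blue). Filled points were called and open ones were not. The filled grey points all lie left of 0 and the filled red points all lie right of it.

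Of the 6 regulators of SREBP cleavage, Srebf2 and Insig1 were higher in Prep-/- M1 and Insig1 also in Prep-/- M2. In M0 none was called by both criteria, and only Srebf2 was lower at an edgeR adjusted p under 0.05. Srebf2, which encodes SREBP2, was at 141, 145 and 158 CPM in Prep+/- M0 and 109, 99.1 and 98.0 CPM in Prep-/- M0 (log2 fold change -0.54 ± 0.17 SE, edgeR adjusted p = 0.0133). Its M1 values were 123, 94.8 and 99.9 CPM and 144, 177 and 174 CPM, and in M2 they were 102, 111 and 122 CPM and 116, 111 and 187 CPM. The knockout libraries were all lower in M0 and all higher in M1, and in M2 they overlapped with the controls. The M1 log2 fold change was 0.64 ± 0.17 SE (edgeR adjusted p = 0.00756). That call was near the fold criterion and was lost without Prep+/- M1 replicate 2 or Prep-/- M1 replicate 2. Srebf2 mRNA does not show how much SREBP2 was cleaved.

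Insig1, a retention factor whose gene is itself a classical SREBP target, was at 62.8, 64.4 and 79.3 CPM in Prep+/- M0 and 60.5, 65.8 and 62.2 CPM in Prep-/- M0, overlapping. In M1 it was at 43.1, 35.7 and 36.3 CPM and 81.2, 102 and 109 CPM, and in M2 at 56.4, 50.7 and 63.7 CPM and 101, 89.9 and 143 CPM. All knockout libraries were higher in both stimulated states. The log2 fold change was 1.34 ± 0.16 SE (edgeR adjusted p = 5.47e-05) in M1 and 0.97 ± 0.16 SE (edgeR adjusted p = 0.000396) in M2, and 0.76 in M2 without Prep-/- replicate 3 (edgeR adjusted p = 0.000697).

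Insig2 and Scap were not called in any knockout comparison. Insig2 was at 32.5, 34.0 and 31.8 and 32.3, 32.9 and 40.9 CPM in Prep+/- and Prep-/- M0, 36.2, 39.7 and 38.3 and 48.2, 43.9 and 48.8 CPM in M1, and 46.2, 43.1 and 44.7 and 40.5, 37.8 and 44.1 CPM in M2. Its M1 groups were separate, with the knockout higher by a log2 fold change of 0.30. Scap was at 42.4, 41.5 and 46.0 and 46.5, 46.9 and 36.3 CPM in M0, 28.7, 27.8 and 29.4 and 21.6, 26.7 and 24.9 CPM in M1, and 37.4, 36.6 and 33.0 and 34.6, 29.4 and 29.4 CPM in M2. Scap was the 1 member whose M1 libraries were all lower in the knockout (log2 fold change -0.23 ± 0.12 SE, edgeR adjusted p = 0.130). The proteases Mbtps1 and Mbtps2 were not called either. For M0, M1 and M2 in turn their log2 fold changes were -0.17, 0.06 and 0.12 for Mbtps1 and -0.22, 0.36 and 0.07 for Mbtps2.

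The members that move or store cholesterol differed from each other. Stard4, a sterol transfer protein gene, was at 66.5, 66.1 and 69.0 CPM in Prep+/- M0 and 36.0, 40.5 and 42.6 CPM in Prep-/- M0, and at 32.4, 28.2 and 25.9 CPM in Prep+/- M1 and 37.0, 55.7 and 56.9 CPM in Prep-/- M1. It was lower in M0 and higher in M1 without overlap, with log2 fold changes of -0.76 ± 0.15 SE (edgeR adjusted p = 0.000785) and 0.79 ± 0.16 SE (edgeR adjusted p = 0.00141). In M2 it was at 39.3, 41.1 and 45.1 and 34.6, 35.8 and 47.9 CPM, overlapping. Soat1 (chromosome 1, 156252095 to 156303864), the enzyme that esterifies cholesterol for storage, was at 391.8, 406 and 383 CPM in Prep+/- M2 and 693, 632 and 564 CPM in Prep-/- M2. All 3 knockout libraries were higher, with a log2 fold change of 0.68 ± 0.11 SE (edgeR adjusted p = 0.000229) and of 0.76 without Prep-/- M2 replicate 3. In M0 it was at 274, 266 and 263 and 313, 299 and 378 CPM and in M1 at 353, 349 and 336 and 376, 326 and 376 CPM, and was not called.

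Much of the M2 picture rested on Prep-/- replicate 3. Without it, 3 members were higher (Mvd, Insig1 and Soat1) and 4 lower (Acat2, Sqle, Lbr and Hsd17b7) in Prep-/- M2, against 8.61% of all genes higher and 13.0% lower, and the members' median log2 fold change was -0.01 in place of 0.27. Leaving out Prep-/- M1 replicate 1 instead gave 18 members higher in M1, against 7.91% of all genes, and a median of 0.97. In M0, 8 members were lower without Prep-/- replicate 3, though not the same 8, since Lss was no longer called. The share of all genes was not counted for that fit. Groups that did not overlap were counted as well. In M0 2 members were higher and 17 lower in all knockout libraries, against 25.6% and 27.1% of all genes. In M1 21 members were higher and 1 lower (29.8% and 27.1% of all genes). For M2, 8 were higher and 3 lower (21.2% and 20.9%).

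The response to LPS was compared with M0 within each genotype, so both comparisons of a genotype below share its M0 libraries. In Prep+/- BMDMs, 9 of 29 members were lower and 0 higher in M1 than in M0, against 20.9% and 16.7% of all genes, with a member median log2 fold change of -0.49. For the count of 0, edgeR gave 4 at an unadjusted p under 0.05 and DESeq2 called 0. The lower members were Acat1 (-0.86 on the log2 scale), Acat2 (-0.77), Idi1 (-1.26), Lbr (-2.26), Dhcr7 (-0.94), Scap (-0.60), Insig1 (-0.84), Mbtps1 (-0.66) and Stard4 (-1.22). In Prep-/- BMDMs, 18 members were higher and 2 lower, against 20.9% and 21.0% of all genes, with a median of 0.88. The largest increases were those of Hsd17b7 (2.99 ± 0.53 SE, edgeR adjusted p = 0.000144), Acat2 (2.28 ± 0.24 SE, edgeR adjusted p = 6.48e-07) and Fdps (2.15 ± 0.29 SE, edgeR adjusted p = 8.63e-06) on the log2 scale. Lbr and Scap were lower with LPS in both genotypes, and Lbr fell by 2.26 in Prep+/- and fell by 2.08 in Prep-/- on the log2 scale. Acat2, Idi1, Dhcr7 and Insig1 were lower with LPS in Prep+/- and higher in Prep-/- BMDMs. For Insig1 the increase in Prep-/- (0.63 ± 0.16 SE, edgeR adjusted p = 0.00302) came to 0.58 once the compared libraries were fitted alone with a replicate block, just under the fold criterion.

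With IL-4 and IL-13, 4 members were lower and 0 higher in Prep+/- BMDMs than in M0, against 6.77% and 6.09% of all genes, and the median was -0.27. At an unadjusted p under 0.05 edgeR gave 2 higher, and DESeq2 called 0. The lower members were Tm7sf2 (-0.72), Lbr (-0.75), Sc5d (-0.93) and Stard4 (-0.68). In Prep-/- BMDMs 13 members were higher and 2 lower (14.7% and 15.5% of all genes), with a median of 0.68. Without Prep-/- M2 replicate 3 these counts were 8 and 3 (11.7% and 14.3% of all genes), with a median of 0.14. Soat1 was higher with and without it, at 0.93 and 0.99 on the log2 scale, and in Prep+/- BMDMs it was at 0.56 with an edgeR adjusted p of 0.00116, under the fold criterion.

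**Figure D4:**
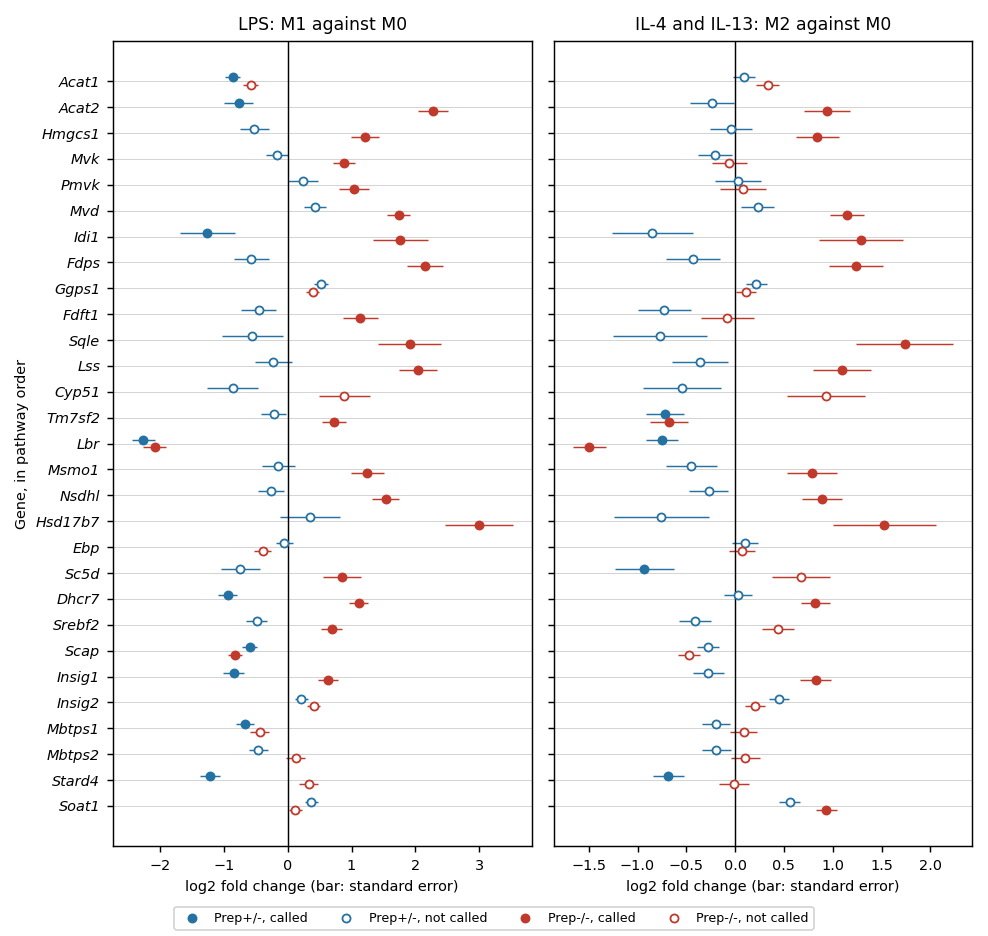
Log2 fold change against M0 of the same genotype (horizontal axes, bars are standard errors) for M1 (left) and M2 (right) in Prep+/- (blue) and Prep-/- BMDMs (red), with members in pathway order. Filled points were called. With LPS most enzyme points lie left of 0 in blue and right of 0 in red, while Lbr lies left of 0 in both.

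The difference between the knockout effects was tested itself, as the effect in M1 minus that in M0. It was called higher in 19 of 29 members and lower in 0, against 12% and 9.15% of all genes, with a median of 1.39 on the log2 scale and 25 members above 0 whether called or not. For the count of 0 edgeR gave 0 at an unadjusted p under 0.05 and DESeq2 called 0. The difference was largest for Acat2 (3.05 ± 0.33 SE, edgeR adjusted p = 2.36e-05), Idi1 (3.02 ± 0.61 SE, edgeR adjusted p = 0.00223) and Fdps (2.72 ± 0.40 SE, edgeR adjusted p = 0.000208). Of the 21 enzymes it was called for 16, the exceptions being Acat1, Pmvk, Ggps1, Lbr and Ebp. For the effect in M2 minus that in M0, which shares the M0 libraries, 12 members were called higher and 0 lower (4.53% and 4.13% of all genes), with a median of 0.79 and 24 members above 0. At an unadjusted p under 0.05 edgeR gave 1 lower, and DESeq2 called 1. That count of 12 depended on single libraries. It was 3 without Prep+/- M0 replicate 2, Prep+/- M0 replicate 3 or Prep+/- M2 replicate 1, 4 without Prep+/- M2 replicate 2, 5 without Prep-/- M0 replicate 1 and 6 without Prep-/- M2 replicate 3. Shares of all genes were not counted for these fits.

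Lists of neighbouring pathways were counted in the same fits. As background, M0 had 15.4% of all genes called higher and 17.2% lower, M1 had 12.3% higher and 10.2% lower, and M2 had 6.37% higher and 9.82% lower. The fatty acid synthesis list, 13 genes around Srebf1 (which encodes SREBP1), had 2 genes higher and 5 lower in Prep-/- M0, 11 higher under LPS, and 4 higher against 2 lower in M2, with medians of -0.33, 1.03 and 0.23. Scd1, a desaturase, was at 0.646, 0.843 and 0.606 CPM in Prep+/- M1 and 14.7, 20.2 and 14.0 CPM in Prep-/- M1 (log2 fold change 4.53 ± 0.67 SE, edgeR adjusted p = 0.000208), and Fads2 was at 3.66, 1.80 and 1.58 CPM and 41.1, 60.2 and 41.6 CPM (4.33 ± 0.62 SE, edgeR adjusted p = 0.000155). Both were higher in every Prep-/- M1 library, but in M0 they went in different directions. Scd1 was at 1.185, 0.829 and 0.882 CPM in Prep+/- M0 and 2.04, 2.89 and 5.44 CPM in Prep-/- M0, higher in every knockout library. Fads2 had a log2 fold change of -0.60 ± 0.52 SE (edgeR adjusted p = 0.358) in M0. In Prep-/- M2, replicate 3 stood apart for both, with Scd1 at 10.6, 6.55 and 42.3 CPM and Fads2 at 8.60, 8.40 and 52.8 CPM. Acss2 of the same list was not higher there, at 7.75, 9.70 and 6.90 CPM. That library enters the M2 counts and medians of all these lists, which were not counted again without it. Among 8 genes of the sterol sensor LXR and its targets, 4, 3 and 5 were higher in M0, M1 and M2, and none was called lower. The exporter Abca1 had log2 fold changes of 2.47 ± 0.20 SE (edgeR adjusted p = 3.72e-07) in M0 and 2.51 ± 0.20 SE (edgeR adjusted p = 1.23e-06) in M2 but 0.31 ± 0.19 SE (edgeR adjusted p = 0.203) in M1. Apoe, which carries exported cholesterol, had 2.74 ± 0.37 SE (edgeR adjusted p = 2.32e-05) in M0 and -0.06 ± 0.35 SE (edgeR adjusted p = 0.910) in M1. The exporter Abcg1 and the ubiquitin ligase Mylip were higher in all 3 states, with log2 fold changes of 1.12, 1.58 and 0.96 for Abcg1 and 1.08, 1.02 and 0.99 for Mylip in M0, M1 and M2. Lpcat3, a phospholipid acyltransferase, was the third gene called in M1, at 0.77, and was named after its values were seen.

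Of 5 oxysterol genes 4 were tested. Ch25h, which makes a sterol known to suppress SREBP cleavage, was at 2.96, 5.84 and 9.06 CPM in Prep+/- M0 and 0.237, 0.167 and 0.461 CPM in Prep-/- M0. The M1 libraries were at 16.4, 19.7 and 16.8 CPM and 6.24, 3.73 and 4.94 CPM, and those of M2 at 22.0, 15.7 and 36.1 CPM and 3.27, 1.999 and 2.97 CPM. It was lower in every knockout library of each state, with log2 fold changes of -4.36, -1.83 and -3.16. The Prep-/- M0 values lie near the floor, since 3 counts stand at 0.142, 0.126 and 0.138 CPM in those libraries. The size of the M0 change therefore rests on few reads. Cyp27a1, another sterol hydroxylase, was higher in all states (3.20, 1.64 and 1.94). Of 12 genes of sterol uptake and transport, 2 were higher and 3 lower in M0, a share near that of all genes for the higher ones. Under LPS 3 were higher, and in M2 1 was higher and 2 lower. The lipoprotein receptor gene Lrp8 was lower in M0 (-2.67 ± 0.24 SE, edgeR adjusted p = 7.15e-07) and higher in M1 (0.68 ± 0.22 SE, edgeR adjusted p = 0.0217). Among 14 isoprenoid-using enzymes 3 were lower in M0 and 1 in M1, with Pdss1, which starts the ubiquinone side chain, at -2.25 ± 0.35 SE (edgeR adjusted p = 7.73e-05) in M0. Of 10 endoplasmic reticulum partners of the pathway, 1 was higher and 1 lower in M0, 1 lower in M1 and 2 lower in M2.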

How the data were processed

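RNA-seq was run on 18 BMDM libraries made with a stranded mRNA kit, 3 for each of 6 groups (Prep+/- and Prep-/- in M0, M1 and M2), and samples were grouped by their labels. The authors trimmed reads with Trimmomatic 0.36, aligned them to GRCm39 with HISAT2 2.2.1.0 and assembled transcripts with stringtie2, and deposited raw counts per gene symbol. The annotation release, the strand setting and the handling of reads with several matches are not given in the sources used here. Totals were 19068237 to 22598279 counts per library.

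From these deposited counts, edgeR 4.0.16 (R 4.3.3) fitted 1 coefficient per group over all 18 libraries, with filterByExpr, TMM scaling, the quasi-likelihood test and Benjamini-Hochberg adjustment over 12021 genes. A call needed both an adjusted p under 0.05 and more than 1.5-fold difference, as in the study, whose own tool DESeq2 (1.42.0) was an alternative. The scripts were tested on simulated data. Other alternatives were RLE scaling, no filter, a mean of at least 5 CPM, no fold criterion, only the libraries compared, a replicate block, and each library left out in turn. Replicate pairs of a group differed by more than counting noise (chi-square per degree of freedom 9.50 to 114), so none was a repeat deposit. Deviations of same-numbered libraries all correlated above 0.1 only for the knockout in M2 (0.249, 0.255 and 0.462) and for M1 against M0 in Prep-/- BMDMs (0.201, 0.169 and 0.259), and the pairing there comes from this check alone, not from the labels.

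The members, the lists of other genes and the tests were chosen with earlier results of these data known. Values in every library are given for members called in a knockout comparison and for Srebf2, Scap, Insig1 and Insig2. Up to 4 called genes of each other list are named, and Lpcat3 was named beyond that limit. Coordinates are from GENCODE M39 (GRCm39). Transcripts sharing at least 200 bases at 90% identity were found with blastn 2.17.0.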

Additional observations from a re-analysis of the deposited data

Results flagged for a closer look

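These results were singled out because a test of the difference itself (the interaction term of the edgeR fit) found that the knockout effect differed between states. For M1 minus M0 this held for 19 members. The differences on the log2 scale were 3.05 for Acat2, 1.73 for Hmgcs1, 1.05 for Mvk, 1.30 for Mvd, 3.02 for Idi1 and 2.72 for Fdps. From squalene onward they were 1.59 for Fdft1, 2.46 for Sqle, 2.27 for Lss, 1.75 for Cyp51, 0.94 for Tm7sf2, 1.39 for Msmo1, 1.79 for Nsdhl, 2.64 for Hsd17b7, 1.59 for Sc5d and 2.05 for Dhcr7. Outside the enzymes they were 1.18 for Srebf2, 1.47 for Insig1 and 1.55 for Stard4.

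For M2 minus M0 it held for 12 members, of which only Insig1 kept its call under every alternative. The differences were 1.17 for Acat2, 0.92 for Mvd, 2.14 for Idi1, 1.67 for Fdps, 2.50 for Sqle and 1.45 for Lss. They were 1.24 for Msmo1, 1.16 for Nsdhl, 1.61 for Sc5d, 0.79 for Dhcr7, 0.85 for Srebf2 and 1.10 for Insig1. Prep-/- M2 replicate 3, which stood apart in the members, enters these values, and both contrasts share the M0 libraries.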

How the results depend on the processing

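Of 111 member values called in a comparison, 73 kept their call under every alternative, 38 lost it under at least 1 and 0 reversed. Apart from the fits without Prep-/- M1 replicate 1 or M2 replicate 3 given above, shares of all genes were not counted under the alternatives. Changes in the member counts below thus cannot be told from changes over all genes. With no fold criterion, 2 members were higher in Prep-/- M0, 3 were higher with LPS and 2 with IL-4 and IL-13 in Prep+/- BMDMs, and 5 were lower with LPS in Prep-/- BMDMs. DESeq2 called 1 member lower for the knockout effect in M2 minus that in M0. Fitted on only the libraries compared, M2 against M0 gave 8 lower in Prep+/- and 7 higher and 1 lower in Prep-/- BMDMs, and M2 minus M0 gave 4. With the replicate block added these were 8 lower, 6 higher and 1 lower, and 7. For the knockout in M2 and the LPS response of Prep-/- BMDMs, where same-numbered libraries deviated together, the block took away only the call of Insig1 among called members, and gave 6 higher and 1 lower, and 18 higher and 3 lower. Elsewhere the libraries share only a number. Leaving out Prep-/- M0 replicate 3, M1 replicate 1 and M2 replicate 3 together, a choice made after seeing the data, gave 3 higher and 4 lower members for the knockout in M2 and 6 higher and 1 lower for M2 against M0 in Prep-/- BMDMs.

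Dropping 1 library at a time, the knockout gave 7 to 8 members lower in M0 and 13 to 18 higher in M1. In M2 it gave 3 to 8 higher and 1 to 4 lower members. LPS gave 6 to 12 lower in Prep+/-, and 15 to 19 higher and 2 to 4 lower in Prep-/- BMDMs. IL-4 and IL-13 gave 2 to 4 lower in Prep+/-, and 8 to 15 higher and 2 to 3 lower in Prep-/- BMDMs. The difference of knockout effects was called higher in 17 to 20 members for M1 minus M0, and higher in 3 to 16 and lower in 0 to 1 for M2 minus M0. These ranges were not set beside those of all genes, and their cause was not tested. The lowest raw count of a member in any library was 45.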
